A study of Mus musculus with 13 samples.

Results

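The enzymes that load amino nitrogen onto glutamine and alanine for export from muscle were followed through 6 genes of the normalized counts table: Glul, Gpt, Gpt2, Got1, Got2 and Glud1. They were taken as listed rows, by symbol, for the reactions they catalyse and not for their values. Earlier results of these data were known when the list was made. The table holds 21868 genes, of which 12303 had a mean of at least 10 normalized counts over the 13 mice and were tested, and all 6 genes were among them.

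Working muscle cannot make urea. Amino groups taken from branched-chain and other amino acids are collected on glutamate, and leave the fibre mainly as glutamine, made from glutamate and ammonia by glutamine synthetase (Glul), and as alanine, made from glutamate and pyruvate by the alanine aminotransferases (Gpt in the cytosol, Gpt2 in mitochondria). The aspartate aminotransferases (Got1 in the cytosol, Got2 in mitochondria) pass amino groups between glutamate and aspartate and form part of the malate-aspartate shuttle, and glutamate dehydrogenase (Glud1) releases or fixes ammonia in the mitochondrial matrix. Glul is known as a gene that glucocorticoids raise in muscle, and liver takes up the exported alanine for gluconeogenesis.

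RNA was sequenced from the gastrocnemius, a calf muscle, of 13 obese male C57BL/6N mice (C57BL/6 in the labels). They entered the study at 7 weeks of age, were acclimatized for 1 week, ate a diet with 60 kcal% fat for 15 to 17 weeks and were then put on standard chow, so that all groups lost the high-fat diet at the start of treatment. For 3 weeks, 5 vehicle-treated mice received phosphate-buffered saline, 5 mice received semaglutide, a GLP-1 receptor agonist, at 30 nM/kg per day by intraperitoneal injection, and 3 mice received this dose of semaglutide and drank water containing 0.114 g/mL of the ketone ester. The labels add a placebo for the vehicle and the semaglutide group. No group received the ketone ester without semaglutide. Each library is named after 1 mouse, and mice are called by that number below.

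Between 15319471 and 23498162 reads fell on genes per library. The labels give a single batch value for all samples, so no value within batches could be given. All 8 muscle identity genes, Ckm and Myh4 among them, were present in every mouse. Semaglutide mouse 13 stood apart from its group: on the first principal component of the log2 values (38.1% of the variance) it scored -9.12, the other semaglutide-treated mice scored 31.8 to 52.5, and the remaining mice scored -25.6 to -12.8. Whether mouse 13 was dosed as labelled cannot be told from the files, and it was kept in the semaglutide group. Fold changes of the enzymes that rest on it are given with and without it. The deposited scaling gave 1459 genes higher and 1625 lower under semaglutide than vehicle, whereas columns rescaled to equal totals gave 3262 higher and 929 lower and moved the median of all genes to 0.17 on the log2 scale. For semaglutide + ketone ester against semaglutide the deposited scaling gave 1118 higher and 1144 lower, and equal totals gave 611 higher and 3587 lower with a median of -0.24.

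Compared per kilobase of exon, the 6 transcripts fell into an abundant set of 4 and a scarcer pair. In vehicle-treated mice the mean level was 2618 normalized counts per kb for Got1, 2564 for Got2, 1953 for Glul and 1928 for Gpt2, against 532 for Glud1 and 196 for Gpt. The ranges of Got1 and Got2 overlapped, as did those of Glul and Gpt2, while Got2 and Glul, Gpt2 and Glud1, and Glud1 and Gpt did not overlap as neighbours in this order. The mitochondrial alanine aminotransferase was therefore the more abundant of its pair by far, whereas the cytosolic and mitochondrial aspartate aminotransferases were of similar level.

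In semaglutide-treated mice the order of mean levels was Glul (3273 normalized counts per kb), Got2 (2293), Got1 (2090), Gpt2 (1460), Glud1 (464) and Gpt (114). With the ketone ester it was Got2 (3011), Got1 (2812), Glul (2009), Gpt2 (1727), Glud1 (573) and Gpt (220). Glul thus had the highest mean in the semaglutide group and the third highest in both other groups, but in both semaglutide-treated groups the ranges of neighbours among the 4 abundant transcripts overlapped. Only Glud1 and Gpt stood clear of their neighbours there.

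**Figure D1:**
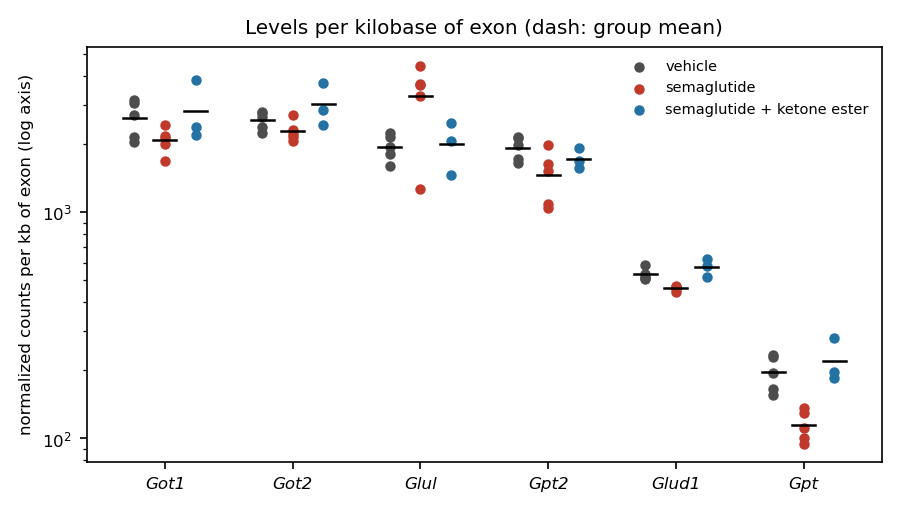
Each point is a mouse, with its normalized counts per kilobase of merged exon on a log axis, and the dash is the group mean, for vehicle (grey), semaglutide (red) and semaglutide + ketone ester (blue). Got1, Got2, Glul and Gpt2 lie far above Glud1 and Gpt in every group, and 4 of 5 semaglutide-treated mice lie above all other mice for Glul.

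The question put to the 3 groups was whether the expression of these enzymes differed with semaglutide and with the ketone ester added to it. In limma, fitted over all genes tested with all 3 groups, 1 of the 6 genes, Gpt, fell under semaglutide compared with vehicle (adjusted p under 0.05). The background was 25.1% of all genes called in this comparison, so that 1 of 6 is not above it. The values of the groups did not overlap for 2 of the 6, Gpt and Glud1, against 14.7% of all genes. The median log2 fold change of the 6 genes was -0.26, against -0.0029 for all genes tested, with 5 genes lower and Glul higher.

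With the ketone ester added to semaglutide, 2 of the 6 genes, Gpt and Glud1, rose compared with semaglutide alone, where 18.4% of all genes were called. Those 2 were also the genes whose groups did not overlap, against 20.1% of all genes. The median log2 fold change was 0.34, against -0.00024 for all genes, with 5 genes higher and Glul lower. Between semaglutide + ketone ester and vehicle none of the 6 was called by limma, none had an unadjusted p under 0.05, and neither edgeR nor DESeq2 on the recovered reads called one. Only 0.236% of all genes were called there, while 1289 of 12303 had an unadjusted p under 0.05. Groups of this pair overlapped for all 6 genes, against 11.3% of all genes without overlap. The first and second comparison share the semaglutide-treated mice and each shares a group with the third, so their signs are not independent.

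The methods of the study call genes altered across the 3 groups by analysis of variance with a limit on p and on fold change. Read here as an unadjusted p below 0.05 and a fold of 1.5 or more between the highest and lowest group mean, the criterion was met by 16.1% of all genes. Of the 6 enzymes only Gpt did, with a fold of 1.93 between its highest and lowest group mean. Glul had the next widest fold, 1.68, but missed the p, and Glud1 met the p with a fold of 1.24.

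**Figure D2:**
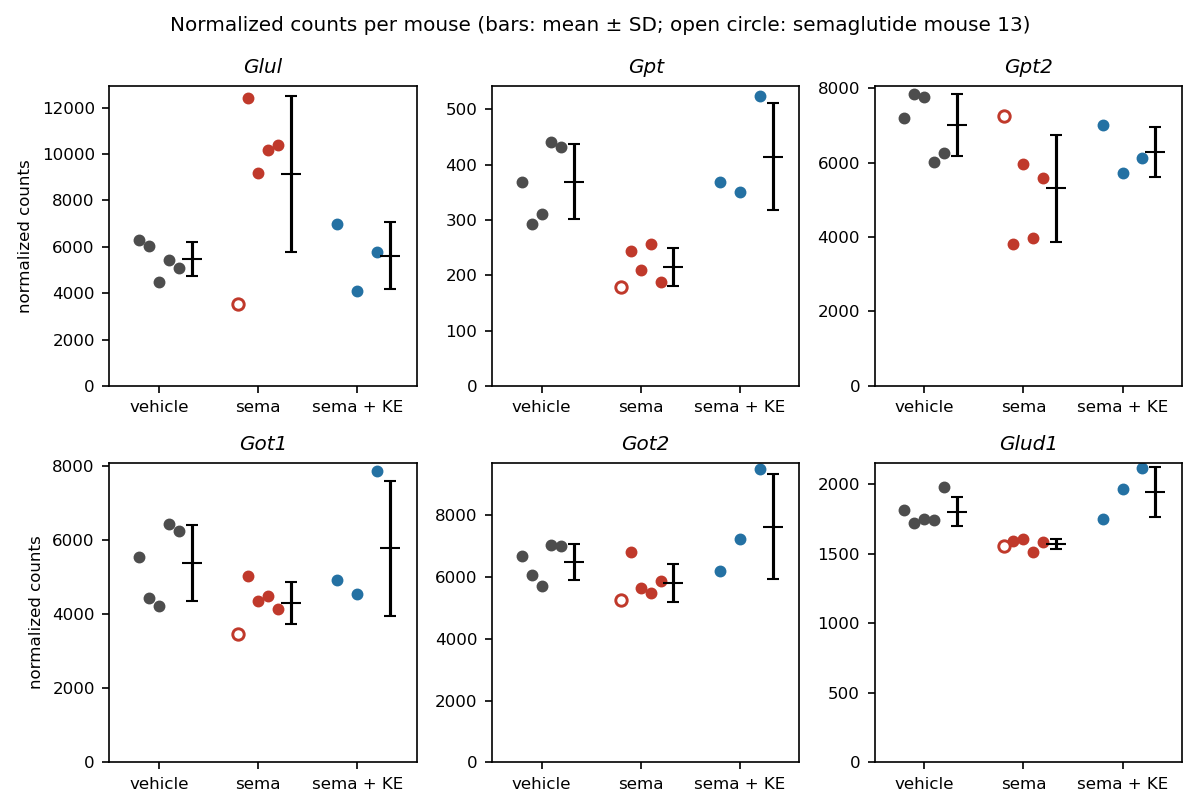
Normalized counts of the 6 genes on linear axes from 0, with 1 point per mouse and the mean ± SD beside each group (vehicle, n = 5; semaglutide, n = 5; semaglutide + ketone ester, KE, n = 3). Semaglutide mouse 13, drawn as an open circle, has the lowest Glul of all 13 mice, and the semaglutide group lies clear of both other groups for Gpt and Glud1.

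Glul, glutamine synthetase, lies on chromosome 1 from 153899944 to 153909723 on the plus strand (GRCm38, GENCODE M21). Vehicle mice 1 to 5 had 6282, 6036, 4463, 5410 and 5068 normalized counts of Glul. Semaglutide mice 14, 15, 16 and 17 had 12415, 9173, 10192 and 10375, and mouse 13 had 3538. Semaglutide + ketone ester mice 19, 21 and 22 had 6963, 4080 and 5784. Thus 4 of 5 semaglutide-treated mice lay above every mouse of the other groups, and the fifth lay below every other mouse of the study.

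Because of this split the Glul means, 5452 ± 734 under vehicle (SD, n = 5), 9138 ± 3344 under semaglutide (SD, n = 5) and 5609 ± 1449 under semaglutide + ketone ester (SD, n = 3), did not differ past the threshold. The log2 fold change of semaglutide against vehicle was 0.64 (SE 0.29, adjusted p = 0.125, limma). That of semaglutide + ketone ester against semaglutide was -0.62 (SE 0.34, adjusted p = 0.211, limma). Without mouse 13 these became 0.95 (adjusted p = 0.00095, limma) and -0.94 (adjusted p = 0.0028, limma), both past the threshold. No other single mouse left out brought Glul past it in either comparison, while array weights, which gave mouse 13 the lowest weight (0.232), did so in both, and edgeR and DESeq2 in the first. Against vehicle, the ketone ester group differed by 0.02 (SE 0.34, adjusted p = 0.997, limma). Over all genes, leaving out mouse 13 raised the calls from 3084 to 4447 under semaglutide and from 2262 to 3954 with the ketone ester added.

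Teddm2 overlaps Glul on the opposite strand and had a mean of 61.4 normalized counts. The libraries were stranded, but whether the counting used strand is not given in the sources used here.

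The sequence before the start site was read for the members that RefSeq's promoter table holds, and 3 are shown because Glul and Gpt2 lay on opposite sides of vehicle in the same semaglutide-treated mice, while Got1 holds the most matches to a motif. Each is the 250 bases before the RefSeq start (GRCm38.p6), 5′ to 3′ on the strand of the gene: Glul at chr1:153899679-153899928 on the plus strand, Gpt2 at chr8:85492326-85492575 on the plus strand and Got1 at chr19:43524606-43524855 on the minus strand. Capitals mark CCAAT, or its reverse complement, the letters bound by the factor NF-Y.
Glul: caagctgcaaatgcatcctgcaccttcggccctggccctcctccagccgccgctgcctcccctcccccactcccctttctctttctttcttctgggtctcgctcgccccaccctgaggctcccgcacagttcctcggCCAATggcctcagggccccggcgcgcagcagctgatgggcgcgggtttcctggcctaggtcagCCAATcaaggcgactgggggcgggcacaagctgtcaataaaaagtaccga
Gpt2: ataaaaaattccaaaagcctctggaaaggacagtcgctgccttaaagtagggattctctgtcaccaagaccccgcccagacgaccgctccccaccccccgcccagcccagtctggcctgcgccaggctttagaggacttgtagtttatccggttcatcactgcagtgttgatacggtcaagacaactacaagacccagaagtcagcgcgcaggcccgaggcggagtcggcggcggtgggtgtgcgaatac
Got1: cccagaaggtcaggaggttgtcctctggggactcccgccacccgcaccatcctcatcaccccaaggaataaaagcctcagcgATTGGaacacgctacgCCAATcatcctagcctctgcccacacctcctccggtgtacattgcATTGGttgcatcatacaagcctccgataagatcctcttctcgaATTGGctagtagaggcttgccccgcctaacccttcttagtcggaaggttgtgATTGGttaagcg

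In windows of these 250 bases and the 50 after the start, CCAAT on either strand was found in 2 of 5 members, Glul and Got1, against 37.4% of 32851 RefSeq promoters. TATAAA was found in Got2 alone, against 13.6%. None of the 5 held the FoxO letters GTAAACA (3.65% of promoters), the glucocorticoid receptor palindrome (0.01%) or a reduced form of it with fewer fixed letters (0.47%), which also matches the full palindrome. None held TGATGNAAT, the ATF4 composite (0.96%), or TCAAGGTCA, letters of the ERR factors (0.42%) on either strand. A match is a description of letters only. Gpt has no entry in the table.

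Gpt encodes the cytosolic alanine aminotransferase, on chromosome 15 from 76695716 to 76699686 (plus strand), and was the one gene of the 6 that moved in both comparisons with semaglutide. Vehicle mice 1 to 5 had 368, 293, 311, 441 and 432 normalized counts. Semaglutide mice 13 to 17 had 179, 243, 209, 256 and 189, so that the highest of them lay below the lowest vehicle-treated mouse. With the ketone ester, mice 19, 21 and 22 had 369, 350 and 525, within or above the vehicle range.

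Mean Gpt was 369 ± 67.9 under vehicle (SD, n = 5), 215 ± 33.7 under semaglutide (SD, n = 5) and 415 ± 96.0 under semaglutide + ketone ester (SD, n = 3). It fell under semaglutide with a log2 fold change of -0.77 (SE 0.16, adjusted p = 0.0055, limma) and rose when the ketone ester was added, with 0.93 (SE 0.18, adjusted p = 0.0063, limma). Both calls held in all 23 alternative fits, leaving out each mouse included. Against vehicle the ketone ester group had a log2 fold change of 0.16 (SE 0.18, adjusted p = 0.850, limma), which became -0.02 without mouse 22. As the muscle was sequenced in bulk, fewer fibres of a kind and less RNA per fibre cannot be told apart here or below.

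Gpt2 encodes the mitochondrial alanine aminotransferase, on chromosome 8 from 85492576 to 85527560 (plus strand). Vehicle-treated mice had 7207, 7832, 7756, 6013 and 6263 normalized counts. In semaglutide mice 14 to 17 the values were 3803, 5974, 3973 and 5574, all below the vehicle range, whereas mouse 13 had 7238, inside it. Mice given the ketone ester as well had 7019, 5722 and 6116.

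The means of Gpt2 were 7014 ± 840 (SD, n = 5), 5312 ± 1439 (SD, n = 5) and 6285 ± 665 (SD, n = 3). With all mice the log2 fold change under semaglutide was -0.44 (SE 0.17, adjusted p = 0.0795, limma), and without mouse 13 it was -0.56 (adjusted p = 0.014, limma). Addition of the ketone ester gave 0.28 (SE 0.20, adjusted p = 0.337, limma) with all mice and from 0.17 without mouse 14 to 0.40 without mouse 13 (adjusted p = 0.558 and 0.0966, limma) when 1 mouse was left out. With equal totals it was 0.04. Against vehicle it gave -0.16 (SE 0.20, adjusted p = 0.874, limma).

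Mouse 13 was thus nearest to vehicle for Gpt2 and below vehicle for Glul, but it had the lowest Gpt of all 13 mice. Glul and Gpt2 separated it from the rest of its group, and Gpt did not.

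Got1, the cytosolic aspartate aminotransferase, lies on chromosome 19 from 43499752 to 43524605 (minus strand). Its vehicle values were 5566, 4439, 4223, 6459 and 6251 normalized counts, and its semaglutide values 3467, 5030, 4375, 4494 and 4135. The ketone ester group had 4929, 4545 and 7887. Vehicle mice 2 and 3 lay within the semaglutide range and mouse 22 above all other mice, so that the groups overlapped.

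The means of Got1 were 5388 ± 1022 (SD, n = 5), 4300 ± 569 (SD, n = 5) and 5787 ± 1829 (SD, n = 3). Semaglutide differed from vehicle by a log2 fold change of -0.31 (SE 0.17, adjusted p = 0.206, limma), and the ketone ester group from semaglutide by 0.39 (SE 0.20, adjusted p = 0.186, limma). Neither passed the threshold in any of the 23 alternative fits, and the second was 0.15 without mouse 22 (adjusted p = 0.650, limma). Against vehicle the value was 0.08 (SE 0.20, adjusted p = 0.945, limma), and it changed sign to -0.17 without mouse 22.

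Got2, the mitochondrial aspartate aminotransferase, lies on chromosome 8 from 95864134 to 95888547 (minus strand). Vehicle-treated mice had 6678, 6056, 5706, 7009 and 6984 normalized counts, semaglutide-treated mice 5233, 6812, 5623, 5460 and 5874, and the ketone ester group 6171, 7209 and 9474. The ranges of all groups overlapped, with mouse 22 again above every other mouse.

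The means of Got2 were 6486 ± 581 (SD, n = 5), 5801 ± 612 (SD, n = 5) and 7618 ± 1689 (SD, n = 3). The log2 fold change was -0.16 under semaglutide (SE 0.12, adjusted p = 0.348, limma), and its sign turned to 0.01 with columns rescaled to equal totals. With the ketone ester added it was 0.38 (SE 0.14, adjusted p = 0.0755, limma), or 0.52 without mouse 19 (adjusted p = 0.0358, limma) and 0.21 without mouse 22 (adjusted p = 0.335, limma), and against vehicle 0.21 (SE 0.14, adjusted p = 0.681, limma). A processed pseudogene, Got2-ps1, is annotated on chromosome 5 and is not among the genes of the table, so reads shared with it cannot be told apart.

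Glud1 encodes glutamate dehydrogenase, on chromosome 14 from 34310727 to 34345265 (plus strand), and had the smallest spread of the 6 genes. Its normalized counts were 1815, 1722, 1748, 1746 and 1982 in vehicle-treated mice and 1558, 1592, 1606, 1514 and 1587 in semaglutide-treated mice. In the ketone ester group they were 1751, 1965 and 2114. Every semaglutide-treated mouse, mouse 13 included, lay below every mouse of the other groups.

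Mean Glud1 was 1803 ± 106 under vehicle (SD, n = 5), 1572 ± 36.7 under semaglutide (SD, n = 5) and 1944 ± 182 under semaglutide + ketone ester (SD, n = 3). The semaglutide difference, a log2 fold change of -0.20 (SE 0.073, adjusted p = 0.0673, limma), did not pass the threshold although the groups did not overlap, and with equal totals it was -0.02 (adjusted p = 0.848, limma). Glud1 rose with the ketone ester compared with semaglutide, by 0.30 on the log2 scale (SE 0.084, adjusted p = 0.0275, limma). That call was lost in 6 of 23 alternative fits, 3 of them those without semaglutide mouse 17, mouse 21 or mouse 22, and with equal totals the value was 0.07 (adjusted p = 0.602, limma). Against vehicle the value was 0.11 (SE 0.084, adjusted p = 0.760, limma). A processed pseudogene, Glud-ps, is annotated on chromosome 7 and is likewise not among the genes of the table.

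**Figure D3:**
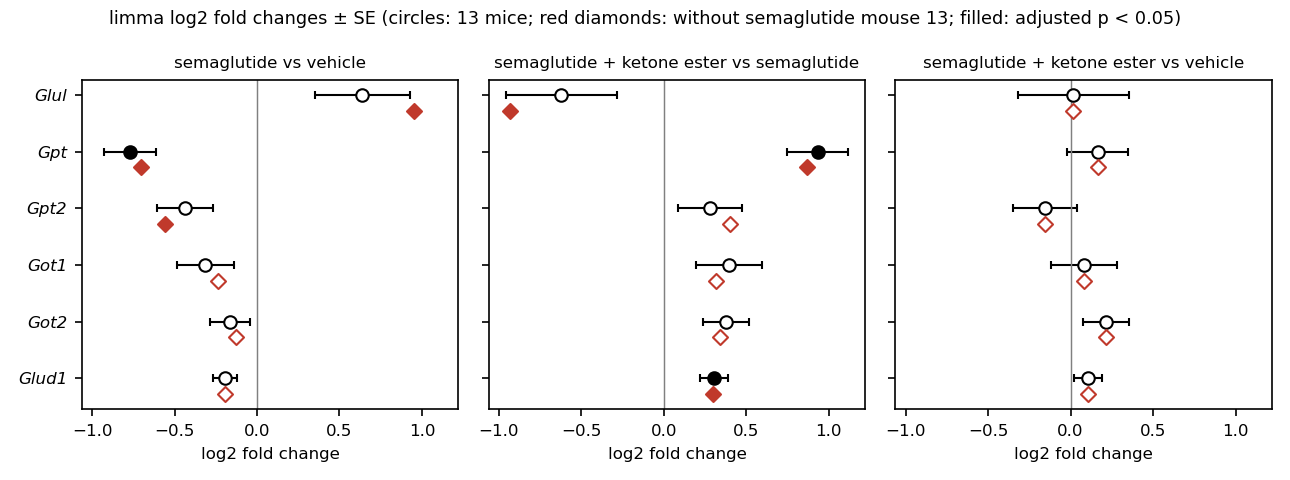
Log2 fold changes from limma (x axis) of the 6 genes in the 3 comparisons, as circles with bars of 1 SE over all 13 mice, and as red diamonds without semaglutide mouse 13, filled where the adjusted p is under 0.05. Leaving out mouse 13 brings Glul past the threshold in the first 2 panels and Gpt2 in the first, and the third panel holds no filled point.

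The cytosolic and mitochondrial forms were compared within each mouse as a ratio, which does not depend on the scale of a library. The ratio of Gpt2 to Gpt normalized counts ran from 11.6 to 40.5 over the 13 mice and was highest in semaglutide mouse 13. On the log2 scale it was 4.26 ± 0.44 under vehicle (SD, n = 5), 4.59 ± 0.61 under semaglutide (SD, n = 5) and 3.94 ± 0.36 under semaglutide + ketone ester (SD, n = 3). The largest difference, -0.65 between semaglutide + ketone ester and semaglutide, did not pass an exact permutation test (two-sided, p = 0.161, adjusted p = 0.450 over 6 tests).

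For Got2 to Got1 the log2 ratio was 0.28 ± 0.15 under vehicle (SD, n = 5), 0.44 ± 0.12 under semaglutide (SD, n = 5) and 0.42 ± 0.22 under semaglutide + ketone ester (SD, n = 3). The semaglutide difference of 0.15 did not pass either (exact permutation test, two-sided, p = 0.119, adjusted p = 0.450). The smallest p this test allows is 0.0079 for 5 mice against 5 and 0.018 for 3 against 5, both before adjustment. After adjustment over all the ratio tests, a comparison of 3 mice against 5 could not have passed 0.05 on its own. A comparison of 5 against 5 could have passed on its own only at its smallest p. The ratio tests with the ketone ester group therefore cannot tell whether the ratios differed there.

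Within groups, the cytosolic aminotransferases and Got2 varied together from mouse to mouse. With the group means removed, Pearson's r over the 13 mice was 0.94 for Gpt and Got1. It was 0.87 for Got1 and Got2 and 0.74 for Gpt and Got2. Glud1 had an r of 0.75 with Got2, 0.58 with Got1 and 0.47 with Gpt. The r was -0.70 for Gpt and Gpt2 and -0.55 for Glul and Gpt2. These are descriptions over few mice that share libraries and groups. All include semaglutide mouse 13, which had the lowest Glul and Gpt and the highest Gpt2 of its group. They were not computed without it, so how far the values for Gpt2 rest on this mouse is not shown. Vehicle mice 2 and 3 had the lowest Gpt, Got1 and Got2 and the highest Gpt2 of their group, and mouse 22 had the highest Gpt, Got1, Got2 and Glud1 of its group.

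Transcripts of slow and oxidative fibres, which the gastrocnemius holds in unequal amount along its depth, were read beside them. The summed level of 8 such genes was 68028 and 42986 normalized counts in vehicle mice 2 and 3 and 107156 to 120278 in vehicle mice 1, 4 and 5, 33835 to 91396 in semaglutide-treated mice, and 66869, 68738 and 103632 in mice 19, 21 and 22. Of the 8 genes, 1 was lower under semaglutide than vehicle (Myl3, -1.32, adjusted p = 0.0153, limma), and none was called by limma in the other comparisons, where edgeR and DESeq2 each called 1 with the ketone ester added. With group means removed, r with the mean log2 level of this list was 0.60 for Gpt, 0.61 for Got1 and 0.67 for Got2. For Glud1 it was 0.42, for Glul 0.14 and for Gpt2 -0.55, all over the 13 mice. The part of fibre composition in the results above was not tested.

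**Figure D4:**
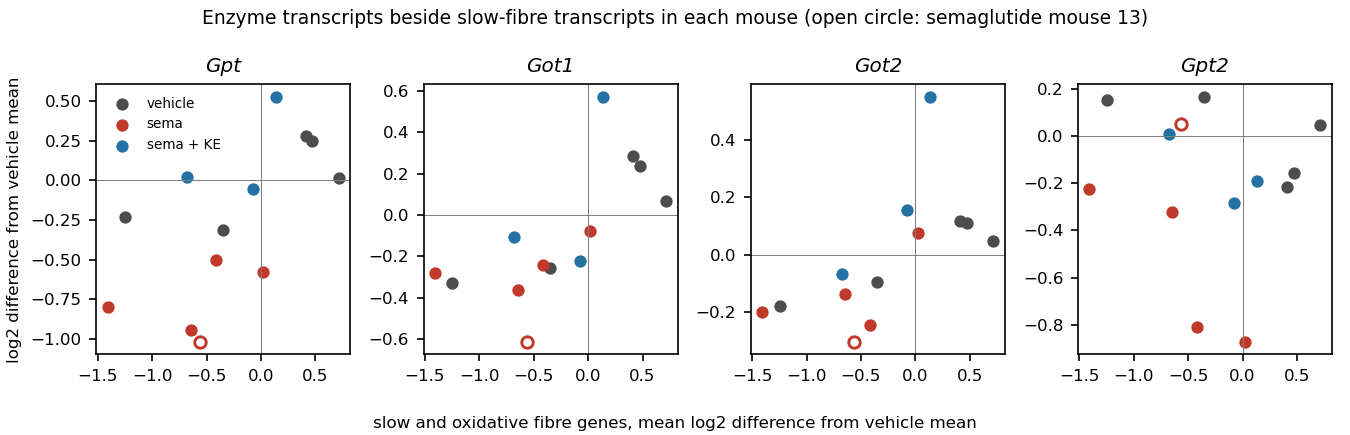
Each point is a mouse: the x axis is the mean log2 difference from the vehicle mean over 8 slow and oxidative fibre genes, and the y axis that of Gpt, Got1, Got2 or Gpt2. Within the vehicle group the mice with the lowest slow-fibre level have the lowest Gpt, Got1 and Got2 and the highest Gpt2. For Gpt every semaglutide-treated mouse lies below every vehicle-treated mouse. Few mice of these 2 groups share a slow-fibre level, and the part of fibre composition was not tested.

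Markers of other cells also moved with the groups. Under semaglutide 5 of 6 fibroblast genes and 5 of 6 tendon genes fell, and with the ketone ester added 4 and 2 of them rose and 1 tendon gene fell. Summed tendon levels were 1294 to 7357 normalized counts under vehicle, 757 to 2827 under semaglutide and 3504 to 4363 with the ketone ester, and vehicle mouse 1, at 1294, lay inside the semaglutide range. Fibroblast sums were 5915 to 14436, 4883 to 7107 and 8280 to 14040.

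Erythrocyte genes were not called under semaglutide and 4 of 5 were higher with the ketone ester than with semaglutide alone, where edgeR called 1, DESeq2 0 and limma without the filter on low values 1. Their sums were 1356 to 2291 under vehicle, 50.5 to 3148 under semaglutide, the highest of these in mouse 13, and 2849 to 5558 with the ketone ester. By limma over all 13 mice none of 6 adipocyte, 6 macrophage or 6 Schwann cell genes was called in any comparison. DESeq2 called 1 adipocyte gene under semaglutide. By limma 2 of 6 endothelial genes were higher with the ketone ester than with semaglutide. For these, equal totals gave 0 higher and 1 lower, and limma without the filter on low values called 0. The adipocyte sum was 1763 to 19452 under semaglutide, highest in mouse 16, 3344 to 7020 under vehicle and 3753 to 4596 with the ketone ester. Of the 8 muscle identity genes, 1 rose and 2 fell under semaglutide and 3 rose and 1 fell with the ketone ester added, while equal totals gave 2 higher and 0 lower, then 2 higher and 2 lower. Without mouse 13 all 5 erythrocyte genes were lower under semaglutide, and 6 tendon and 6 muscle identity genes were called with the ketone ester added. The part of these cells in the results on the 6 enzymes was not tested.

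The genes around the 6 enzymes were read as 7 lists. Beside their counts stand the shares of all genes called: 25.1% under semaglutide, 18.4% with the ketone ester added and 0.236% against vehicle. No list was tested against these shares. Of 6 partners of Got1 and Got2 in the malate-aspartate shuttle that were tested, 4 fell under semaglutide and 4 rose when the ketone ester was added, with medians of -0.67 and 0.68 on the log2 scale. Mdh1, the cytosolic malate dehydrogenase, went from 8814 to 5178 normalized counts and back to 9044 (-0.76, adjusted p = 0.0029, and 0.79, adjusted p = 0.0072, limma). Mdh2, its mitochondrial counterpart, had -0.64 and 0.74, and Slc25a12, an aspartate-glutamate carrier, -0.70 and 0.81. The Got1 and Got2 values above, -0.31 and -0.16 under semaglutide, were smaller in size than those of these 3 genes, a difference that was not tested.

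Pyruvate is the acceptor in alanine synthesis, and of 9 genes of its supply and use 6 fell under semaglutide and 5 rose with the ketone ester added. Pkm, muscle pyruvate kinase, had -0.94 (adjusted p = 0.0110, limma) and 1.23 (adjusted p = 0.0084, limma). Mpc2, a subunit of the mitochondrial pyruvate carrier, had -0.65 and 0.71, and Ldhb, a lactate dehydrogenase subunit, fell by 1.07 under semaglutide.

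Branched-chain amino acids are the main donors of the amino groups that leave muscle. Of 7 genes tested, 3 fell and 1 rose under semaglutide, and 3 rose and 1 fell with the ketone ester added. Bcat2, the mitochondrial branched-chain aminotransferase, had -0.40 (adjusted p = 0.0296, limma) and 0.50 (adjusted p = 0.0273, limma). Bckdk, the kinase that restrains the branched-chain dehydrogenase, had -0.35 and 0.45, and Bckdhb, a subunit of that dehydrogenase, went the other way with 0.37 and -0.52. With equal totals the counts called fell from 4 to 2 under semaglutide and from 4 to 1 with the ketone ester added.

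Genes that consume glutamine were mostly not called. Of 11 tested, 3 rose under semaglutide, and 2 of these fell with the ketone ester added. They were the CTP synthetases Ctps2 (1.39, adjusted p = 0.0020, then -1.37, adjusted p = 0.0066, limma) and Ctps (0.56 and -0.61), and Cad of pyrimidine synthesis (0.40, and -0.29 with adjusted p = 0.133, limma). Without mouse 13 the list had 5 calls under semaglutide, 3 higher and 2 lower. In the purine nucleotide cycle, which frees ammonia in working muscle, none of 6 genes was called under semaglutide. Adssl1, the muscle adenylosuccinate synthase, fell with the ketone ester added (-0.59, adjusted p = 0.0100, limma), and without mouse 13 the list had 2 calls under semaglutide and 2 with the ketone ester added. Equal totals also gave 2 calls under semaglutide, both higher, where the 2 without mouse 13 were lower.

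Among 11 transporters of glutamine and alanine, 2 rose and 2 fell under semaglutide, 1 rose and 3 fell with the ketone ester added, and 1 was lower with the ketone ester than under vehicle. That gene was Slc38a2, a sodium-coupled carrier of alanine and glutamine. It had 3829 ± 732 normalized counts under vehicle (SD, n = 5), 3417 ± 749 under semaglutide (SD, n = 5) and 1630 ± 199.6 under semaglutide + ketone ester (SD, n = 3). Its log2 fold change was -1.05 against semaglutide (adjusted p = 0.0040, limma) and -1.22 against vehicle (adjusted p = 0.0299, limma), the latter lost in 7 of 23 alternative fits. Slc7a8, a neutral amino acid exchanger, fell under semaglutide by 0.69 on the log2 scale, and Slc36a1, a proton-coupled amino acid carrier, rose by 0.34. Without mouse 13 the transporters had 6 calls under semaglutide, 3 higher and 3 lower.

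Regulators known to act through the glucocorticoid receptor or FoxO factors, to which Glul responds in muscle, gave 1 gene higher and 2 lower of 14 under semaglutide, and 5 lower with the ketone ester added. Cebpd, a transcription factor gene induced by glucocorticoids, rose by 2.62 (adjusted p = 0.0057, limma) and fell by 3.30 (adjusted p = 0.0056, limma). Mouse 13 had 132 normalized counts of Cebpd, inside the vehicle range of 56.9 to 137, and the other semaglutide-treated mice had 443 to 1459. Foxo1 fell at each step, from 1742 ± 725 under vehicle (SD, n = 5) to 813 ± 195 under semaglutide (SD, n = 5) and 389 ± 142 with the ketone ester (SD, n = 3), and was lower with the ketone ester than under vehicle (-2.12, adjusted p = 0.0285, limma), a call lost in 7 of 23 alternative fits, while the fall from semaglutide was lost in 6.

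Fkbp5, a chaperone gene that glucocorticoids induce, was at 0.60 under semaglutide (adjusted p = 0.0855, or 0.0025 without mouse 13, limma) and fell by 0.92 with the ketone ester added (adjusted p = 0.0379, limma). Without mouse 13 the calls in this list were 7 under semaglutide, 5 of them higher, and 9 with the ketone ester added, all lower. Equal totals gave 6 and 10, and with the ketone ester added the 5 calls were 1 without the filter on low values and 1 to 9 with a mouse left out.

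**Figure D5:**
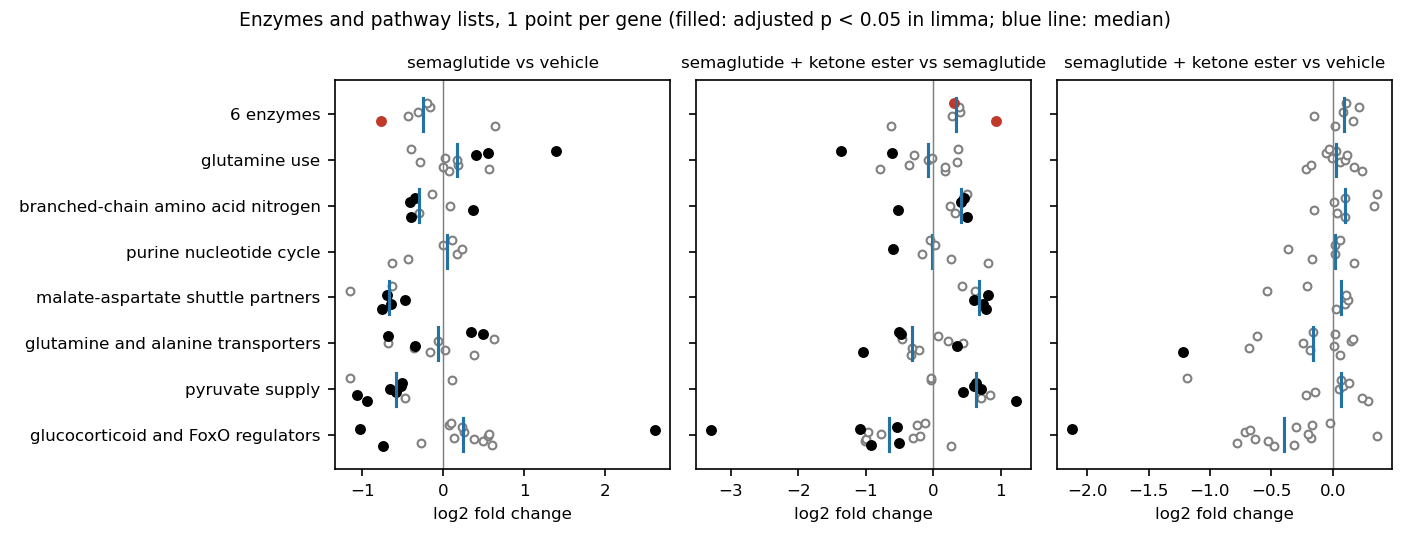
Log2 fold changes from limma (x axis, a separate range for each comparison) of the 6 enzymes and of the genes in 7 lists, 1 point per gene, filled where the adjusted p is under 0.05, with a blue line at the list's median. Malate-aspartate shuttle partners and pyruvate supply lie left of 0 under semaglutide and right of 0 with the ketone ester added, and in the comparison with vehicle 2 points outside the enzymes are filled, Slc38a2 and Foxo1.

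The genes whose levels followed each enzyme most closely over the 13 mice were found by Pearson's r of log2(normalized count + 1), as a description over mice that include the group differences. Nearest to Glul were Prodh, the first enzyme of proline breakdown (0.94), and Myot of the Z-disc (0.93). Gpt was followed by Ptpn3 (0.97), Ivd of leucine breakdown (0.95) and Dmac2 (0.93), and Gpt2 by Fam83d (0.97), Btbd11 (0.95) and Msrb3 (0.91). Btbd11 was near the filter on low values, with 3.38 to 19.4 normalized counts over the mice, and Fam83d fell to 13.5 in semaglutide mouse 14. For Got1 the nearest were Fads6 (0.91), Acot11 (0.90) and Esrrb (0.89), and for Got2 Tcaim (0.92), Tpm2 (0.91) and Mccc1 of leucine breakdown (0.89). Glud1 was followed by genes of mitochondrial energy metabolism: Atp5b of the ATP synthase (0.95), Idh3b of the tricarboxylic acid cycle (0.95) and Ndufa10 of complex I (0.94).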

How the data were processed

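Gastrocnemius RNA from 13 mice was analysed. The authors extracted total RNA with TRIzol, made stranded mRNA libraries and deposited 1 table of normalized counts per gene, a read-coverage signal scaled per library; the processing notes of the submitters name DRAGEN, DESeq2 and the build mm10, and the counter, gene annotation and versions are not given in the sources used here. Columns without a sample numbered 0. Every deposited value was a whole multiple of a step per mouse, within 0.02 of a read, so whole reads were recovered for 100% of values; reads set the depth, and intervals from them would cover counting error only.

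Genes with a mean of at least 10 normalized counts were tested on log2(normalized count + 1), which understates changes of low genes, with limma 3.58.1 (R 4.3.3) on all 3 groups, with Benjamini-Hochberg adjustment of the p-values across every gene tested (threshold 0.05). They reflect the spread between mice. The ratios used two-sided exact permutation tests. The 6 genes and the lists were chosen with earlier results of these data known, so counts over them are descriptions. Named were all 6 genes, up to 3 called genes with the largest change per pathway list, counts and summed levels of marker lists, and the 3 genes nearest to each enzyme by correlation, of which 1 is not reported here. Alternatives were pseudocounts of 0.5 and 10, no filter, equal totals, quantile normalization, array weights, only the 2 groups compared, each mouse left out, and edgeR 4.0.16 and DESeq2 1.42.0 on the recovered reads. edgeR called 3311, 2557 and 45 genes for semaglutide against vehicle, semaglutide + ketone ester against semaglutide and semaglutide + ketone ester against vehicle, and DESeq2 3577, 2935 and 172. A mean-variance trend in limma was added after seeing the data. The limma step was tested on simulated data. Gene positions are from GENCODE M21 and promoters from RefSeq on GRCm38; 5 of the 6 genes matched the promoter table.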

Additional observations from a re-analysis of the deposited data

Results flagged for a closer look

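No value of the 6 enzymes or of their ratios was flagged in 16 tests of groups of 5 mice, where chance flags about 1 in 20. The nearest was Glud1 in vehicle mouse 5, whose gap to the next mouse was 0.641 of the group's range, under the limit of 0.710. Glul in semaglutide mouse 13 followed with a gap of 0.635.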

How the results depend on the processing

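No paired analysis was possible because each mouse has a number of its own in the labels and no number is shared between groups. Of the 6 enzymes, 1 was called under semaglutide; this was 2 with a mean-variance trend (Gpt, Glud1), 3 with array weights (Glul, Gpt, Gpt2), 2 with edgeR (Glul, Gpt), 3 with DESeq2 (Glul, Gpt, Glud1), and 1 to 3 with a mouse left out, the 3 without semaglutide mouse 13. With the ketone ester added the 2 calls became 1, Gpt alone, without the filter on low values, with equal totals and with only the 2 groups compared. They were 1 to 3 with a mouse left out. Other fits added calls: array weights called Glul as well, and Got2 passed in 2 of the 23 alternative fits. Signs that turned were those of Got2 under semaglutide with equal totals (0.012, adjusted p = 0.951) and, for the ketone ester group against vehicle, of Glul with equal totals (-0.046) and array weights (-0.038), of Glul with a mouse left out (-0.16 to 0.23), of Gpt (-0.017, without mouse 22, to 0.27) and of Got1 (-0.17, without mouse 22, to 0.23). The log2 ratio of Got2 to Got1 between the ketone ester and semaglutide groups ran from -0.14 to 0.059 with a mouse left out. Over all genes, array weights called 4847, 4279 and 205 genes in the 3 comparisons, equal totals 4191, 4198 and 37, and no filter 2437, 1669 and 4; fitting only the groups compared gave 751 in the second. Leaving out a mouse gave 2067 to 4447, 862 to 3954 and 1 to 77, each highest without semaglutide mouse 13. The added calls of the enzymes and lists without mouse 13 thus came with more calls over all genes. The causes were not tested. With 3 mice given the ketone ester, 1 mouse such as mouse 22 can set the sign of a small difference; counting error is minor at these depths.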

Other observations

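The balance between Glul and Gpt2 transcripts within a mouse was looked at after their values had been seen. The ratio of their normalized counts was 0.575 to 0.900 in the 5 vehicle-treated mice and 0.713 to 0.992 in the 3 mice given semaglutide + ketone ester. In semaglutide mice 14, 15, 16 and 17 it was 3.26, 1.54, 2.57 and 1.86, above every other mouse, and in mouse 13 it was 0.489, below every other mouse. The 6 transcripts together made up 0.125% to 0.143% of a vehicle library, 0.118% to 0.174% of a semaglutide library and 0.117% to 0.155% of a ketone ester library. Glul was 16.7% to 41.5% of that sum under semaglutide, 18.4% to 22.9% under vehicle and 17.1% to 25.6% with the ketone ester.

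Prodh, nearest to Glul by correlation, had 80.3 normalized counts in semaglutide mouse 13 and 171 to 282 in the other semaglutide-treated mice, against 104 to 158 under vehicle and 108 to 131 with the ketone ester. Its log2 fold change under semaglutide was 0.54 (SE 0.28, adjusted p = 0.178, limma) with all mice and 0.84 (adjusted p = 0.0034, limma) without mouse 13. Prodh was named because it followed Glul over these same 13 mice. Its split at mouse 13 and the change without that mouse follow from this choice and are no separate test.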
